A study of Mus musculus with 15 samples.

Results

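The genes described here are the receptors Axl and Mertk and their ligands Gas6 and Pros1, taken by symbol from the deposited table. All 4 were found among its 13834 genes, and all 4 were among the 13175 genes that passed the filter on low values. They were measured by RNA sequencing of microglia, the resident macrophages of the brain, sorted by flow cytometry from mouse brain. The 15 libraries form 4 groups. Microglia from untreated 18-month-old mice were sorted into a fraction of high autofluorescence (AF-high, n = 5) and one of low autofluorescence (AF-low, n = 3). The young group (n = 3) came from untreated 3-month-old mice. The PLX5622 group (n = 4) came from 18-month-old mice treated with PLX5622, which blocks the CSF1 receptor and is used to deplete microglia. The labels name no dose or schedule of the compound, no sort markers, no autofluorescence gate for the young and PLX5622 cells and no mouse strain or sex. Nor do they say whether the cells of the PLX5622 group had survived the compound or had grown back after it. The libraries of a group are called biological replicates in the labels, without saying whether each came from 1 mouse or from a pool.

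Axl and Mertk are receptor tyrosine kinases of the TAM family, named after Tyro3, Axl and Mertk. They do not bind dying cells directly. Gas6 and protein S, the product of Pros1, attach to phosphatidylserine exposed on an apoptotic cell through a domain whose glutamates are carboxylated with vitamin K, and bind the receptor through their other end, so that the phagocyte engulfs the cell and dampens its response to cytokines. Gas6 binds all TAM receptors, whereas protein S is known as a ligand of Mertk and Tyro3 and acts poorly on Axl. In brain, Mertk is known as a receptor of resting microglia and Axl as one that rises in activated and plaque-associated microglia. Tyro3, the third receptor, was not analysed here.

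In the GENCODE M21 annotation of GRCm38, Axl lies on chromosome 7 from 25757273 to 25788705 on the minus strand and overlaps no other annotated gene. Mertk lies on chromosome 2 from 128698956 to 128802894 on the plus strand. It overlaps an antisense gene, Gm14011, on the minus strand and a snoRNA gene on the plus strand. Gas6 lies on chromosome 8 from 13465374 to 13494490 on the minus strand and overlaps the protein-coding gene Tmem255b on the plus strand. Pros1 lies on chromosome 16 from 62854307 to 62929346 on the plus strand with no overlap. These overlaps are of whole gene spans, introns included, and do not show that the genes share reads. No source used here tells whether the quantification used strand. The part of overlapping genes in the Mertk and Gas6 levels was not tested. The 250 bases before the RefSeq start of both receptor genes are printed because Axl varied most and Mertk least among the 4 genes. For both genes this start differs from the GENCODE one, so the windows do not border the positions given above. They are from RefSeq (GRCm38.p6), 5′ to 3′ on the strand of the gene. Capitals mark GGGCGG, the GC box bound by Sp1-type factors, on either strand.
Axl, chr7:25788734-25788983, minus strand: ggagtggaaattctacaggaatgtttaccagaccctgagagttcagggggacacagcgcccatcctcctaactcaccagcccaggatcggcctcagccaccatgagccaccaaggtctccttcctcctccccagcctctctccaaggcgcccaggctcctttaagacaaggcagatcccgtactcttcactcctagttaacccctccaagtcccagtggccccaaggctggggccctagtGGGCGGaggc
Mertk, chr2:128698665-128698914, plus strand: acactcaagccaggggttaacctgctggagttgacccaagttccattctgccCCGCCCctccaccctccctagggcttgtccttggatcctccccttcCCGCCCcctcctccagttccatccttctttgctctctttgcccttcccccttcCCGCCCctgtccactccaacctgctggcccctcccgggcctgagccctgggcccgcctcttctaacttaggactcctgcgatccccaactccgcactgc
The Axl window held 1 GC box and the Mertk window 3, and those of Gas6 and Pros1 held 4 and 5. Of all 32851 RefSeq windows of this length, 32.7% held at least 1. The G and C content was 60% for Axl, 63.6% for Mertk, 54.8% for Gas6 and 64.4% for Pros1, against a median of 52.4%. Neither TGANTCA, the AP-1 motif, found in 6.75% of all windows, nor the core of the interferon-stimulated response element, found in 2.98%, was present in these letters of the 4 windows on either strand. A match is a description of the letters only.

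Levels are in TPM, the share of a library's transcripts that come from a gene, scaled for transcript length, so that levels can be compared between genes. Differences are first group minus second group in log2(TPM + 1), with standard errors (SE) or 95% confidence intervals from limma's linear model over all 15 libraries. The adjusted p is limma's with Benjamini-Hochberg adjustment over 13175 genes, and a gene was called at an adjusted p under 0.05. No member was called in any of the 6 comparisons (limma, 0 of 24 tests), and 6 of the 24 had an unadjusted p under 0.05, 5 of them for Axl and 1 for Gas6. In 4 of the 24 the groups did not overlap. Among all genes tested, 0% were called between AF-high and AF-low, 0% between AF-high and young, 0.0455% between AF-low and young, 0.63% between PLX5622 and AF-high, 0.144% between PLX5622 and AF-low and 0.0911% between PLX5622 and young. At an unadjusted p under 0.05 these shares were 8.21%, 11%, 11.8%, 15.3%, 14.3% and 5.23% in the same order. The groups did not overlap for 2.76%, 7.78%, 19.3%, 6.55%, 16.2% and 16% of genes.

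The 4 genes differed widely in level. Mertk was the highest, with a mean of 488.6 TPM over the 15 libraries, above that of 97.69% of the genes tested. Pros1 followed with 172.6 TPM (above 93.15%), then Gas6 with 28.77 TPM (above 64.46%) and Axl with 16.21 TPM (above 50.54%). They also differed in how far they varied. From the lowest to the highest library Axl spanned 6.653-fold, from 5.543 TPM in young 1 to 36.88 in PLX5622 1. Gas6 spanned 2.486-fold, Pros1 1.815-fold and Mertk 1.465-fold. The spread between libraries of 1 group on the log2 scale, taken from the model's residuals, was 0.5643 for Axl, wider than for 83.77% of genes, and 0.1678 for Mertk, wider than for only 6.528%. For Gas6 it was 0.2975 and for Pros1 0.2082, wider than for 40.11% and 15.74%.

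**Figure D1:**
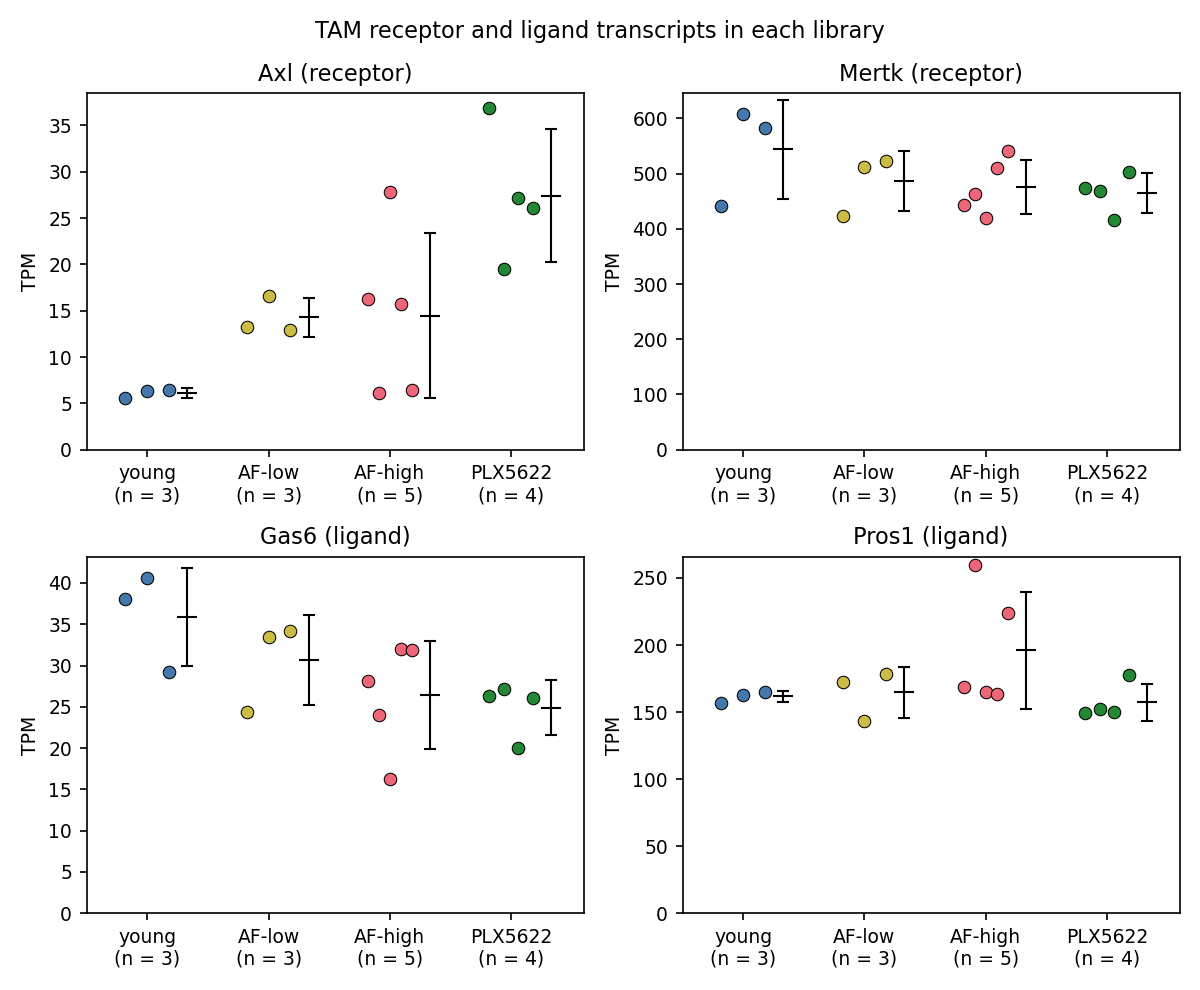
TPM of the receptors Axl and Mertk and the ligands Gas6 and Pros1 (vertical axes from 0) in each of 15 libraries, grouped on the horizontal axis. Each point is 1 library, and the bar beside each group is its mean ± SD. Axl is lowest in the young and highest in the PLX5622 libraries, with the AF-high libraries spread from 6.133 to 27.8 TPM, while Mertk lies between 415.4 and 608.7 TPM in all libraries.

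Axl, the inducible receptor of the pair, had its lowest mean in young microglia, intermediate means in both fractions of old microglia and its highest mean in the PLX5622 group. The young libraries stood at 5.543, 6.377 and 6.476 TPM, and the AF-low libraries 1 to 3 at 13.29, 16.64 and 12.88. The AF-high libraries 1 to 5 stood at 16.29, 6.133, 27.8, 15.7 and 6.406 TPM, and the PLX5622 libraries 1 to 4 at 36.88, 19.47, 27.17 and 26.1. Every PLX5622 library was thus above every young and every AF-low library. AF-high 3 lay among the PLX5622 libraries, whereas AF-high 2 and AF-high 5 lay at the level of the young ones.

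Between PLX5622 and young microglia Axl stood at 27.4 ± 7.174 TPM (SD, n = 4) against 6.132 ± 0.5127 (n = 3), a ratio of means of 4.469. The difference on the log2 scale was 1.96 ± 0.39 (SE), with an interval of 1.13 to 2.80, and had the 23rd smallest p of 13175 genes, but it did not pass the adjusted threshold (unadjusted p = 0.0001531, adjusted p = 0.08772 by limma). The groups did not overlap, which held for 3.28% of all genes in this direction. The median difference of all genes in this comparison was -0.11, and with libraries rescaled to a common median ratio the Axl difference was 2.06 (adjusted p = 0.07981). Across 25 alternative settings the difference was positive in 25 and past the threshold in 5. Leaving out AF-high 3, a library of neither group that enters the shared estimate of spread, brought the adjusted p to 0.02747. With the fit restricted to both groups it was 0.003006. Leaving out a library of either group raised it, to between 0.1141 and 0.3983, the latter without young 2.

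Against AF-high microglia (14.47 ± 8.904 TPM, n = 5) the PLX5622 libraries had 1.05 ± 0.34 more on the log2 scale (interval 0.31 to 1.78, adjusted p = 0.1597 by limma), and the groups overlapped. Against AF-low microglia (14.27 ± 2.063 TPM, n = 3) the difference was 0.87 ± 0.39 (interval 0.034 to 1.71, adjusted p = 0.3293). The groups did not overlap, as was the case for 5.31% of all genes in this direction. The 3 comparisons of the PLX5622 group share its libraries and are not independent of one another. Weighting the libraries by their estimated quality gave an adjusted p of 0.03617 for PLX5622 against AF-high.

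Old microglia carried more Axl than young ones on average, without passing the test. AF-low exceeded young by 1.09 ± 0.42 on the log2 scale (interval 0.20 to 1.99, adjusted p = 0.3148 by limma). These groups did not overlap, which held for 8.25% of all genes in this direction. AF-high exceeded young by 0.92 ± 0.38 (interval 0.12 to 1.72, adjusted p = 0.3818), with AF-high 2 (6.133 TPM) and AF-high 5 (6.406 TPM) inside the range of the young libraries. Both comparisons use the same 3 young libraries. Between AF-high and AF-low the difference was -0.18 ± 0.38 (interval -0.97 to 0.62, adjusted p = 0.926), an interval that spans 0 widely in both directions, so a difference between the autofluorescence fractions was not detectable. The spread of Axl did differ in size, 8.904 TPM among AF-high against 2.063 among AF-low libraries, and this difference in spread was not tested.

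Microglial markers were present in all libraries: all 13 defining markers on the list, P2ry12 among them, were measured, with a sum between 7941 and 13620 TPM. The summed level of border-associated macrophage markers, cells that line vessels and meninges, was 230.6 to 282.1 TPM in the PLX5622, 308.2 to 383.3 in the young, 376 to 508 in the AF-high and 520.2 to 653.2 in the AF-low libraries (13 of 15 markers measured). Stab1, Dab2 and Maf, with means of 155.3, 95.79 and 60.11 TPM over all libraries, weighed most in these sums. The sums are thus no measure of the amount of such cells. AF-high 3, the library with the second highest Axl of all 15, had a sum of 415.3 TPM. On the log2 scale 12 of the 13 markers were lower in PLX5622 than in AF-high libraries (median -0.81). Against AF-low (median -1.35) and against young (median -0.40) 13 of 13 were lower, where the medians of all genes were -0.052 and -0.11. At an unadjusted p under 0.05 there were 9 against AF-high (15.3% of all genes), 10 against AF-low (14.3%) and 2 against young (5.23%). The number called by limma was 1, 3 and 0 in the same order. Between AF-low and young, where Axl had a positive difference, 12 of 13 border-associated markers were positive too (median 0.81). Of the 13, 7 had an unadjusted p under 0.05, as had 11.8% of all genes in this comparison, and 0 were called by limma. Between AF-high and young 9 of 13 were positive, and 0 had an unadjusted p under 0.05 (11% of all genes). The defining microglial markers were negative in 13 of 13 cases between AF-low and young (median -0.32). Of these 5 had an unadjusted p under 0.05 (11.8% of all genes), and 0 were called by limma. They were positive in 13 of 13 between AF-high and AF-low (median 0.29). There 3 had an unadjusted p under 0.05 (8.21% of all genes), and 0 were called. The mannose receptor gene Mrc1 was called lower in PLX5622 than in AF-high and than in AF-low libraries (adjusted p = 0.006026 and 0.0007104 by limma). In PLX5622 libraries Cd163 and F13a1 were called lower against AF-low (adjusted p = 0.01999 and 0.04696 by limma), with 0.05564 and 0.2902 against AF-high. These 3 genes were named after their values were seen. None of the measured markers was at 0 in any library, but this held for all 13834 genes and tells nothing about these cells. The part of these cells in the Axl levels was not tested. In sorted bulk cells, fewer cells of a type and less RNA per cell cannot be told apart.

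Mertk, the receptor for both ligands on resting microglia, varied little. It stood at 441.2, 608.7 and 582.4 TPM in young 1 to 3 and at 424, 512 and 522.3 in AF-low 1 to 3. The AF-high libraries 1 to 5 stood at 443.9, 462.3, 420.1, 510.6 and 541.7 TPM and the PLX5622 libraries 1 to 4 at 474.3, 467.8, 415.4 and 502.6. All 4 groups overlapped one another. In order of their means the groups were young (544.1 ± 90.08 TPM), AF-low (486.1 ± 54.02), AF-high (475.7 ± 49.66) and PLX5622 (465 ± 36.36), and no pair of neighbours in that order differed beyond its spread.

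The widest Mertk difference was that between PLX5622 and young, -0.22 ± 0.14 on the log2 scale (interval -0.52 to 0.086, adjusted p = 0.9787 by limma). For PLX5622 against AF-high it was -0.030 (interval -0.29 to 0.23) and for AF-high against AF-low -0.031 (interval -0.32 to 0.26). The signs of the Mertk differences between AF-high and AF-low and between PLX5622 and both old groups turned positive under quantile normalization. Ttr, a choroid plexus transcript, stood at 7770 TPM in young 1, the lowest of its group in Mertk. It stood at 5084 TPM in young 2, the highest in Mertk, and at 175.7 TPM in young 3. The part of choroid plexus RNA in the Mertk levels was not tested.

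**Figure D2:**
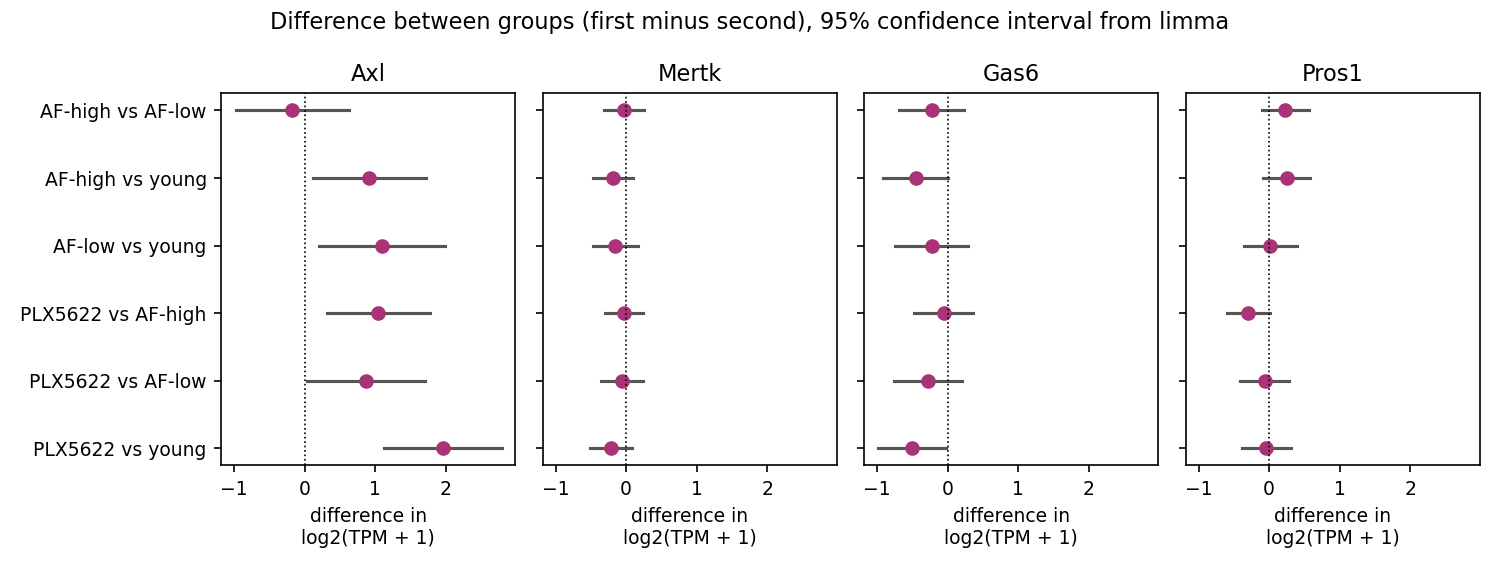
Difference between groups, first minus second, in log2(TPM + 1) (horizontal axes) for each of 6 comparisons (rows) and each of the 4 genes (panels). Points are limma estimates and lines are 95% confidence intervals before adjustment for the number of genes. The Axl intervals lie above 0 in 5 comparisons, and those of Mertk and Pros1 include 0 in all 6.

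The balance of the receptors differed from library to library. Within a library Axl came to 1.139% ± 0.1068 of the Mertk level in young (SD, n = 3), 2.95% ± 0.423 in AF-low (n = 3), 3.174% ± 2.208 in AF-high (n = 5) and 5.917% ± 1.575 in PLX5622 libraries (n = 4). The range was 1.048% to 1.256% in young and 4.162% to 7.774% in PLX5622 libraries, which did not overlap. This proportion does not depend on how libraries are scaled to one another, and it is given as a description, without a test. Even in PLX5622 1, the library with the highest proportion, Mertk was 12.86 times as high as Axl.

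**Figure D3:**
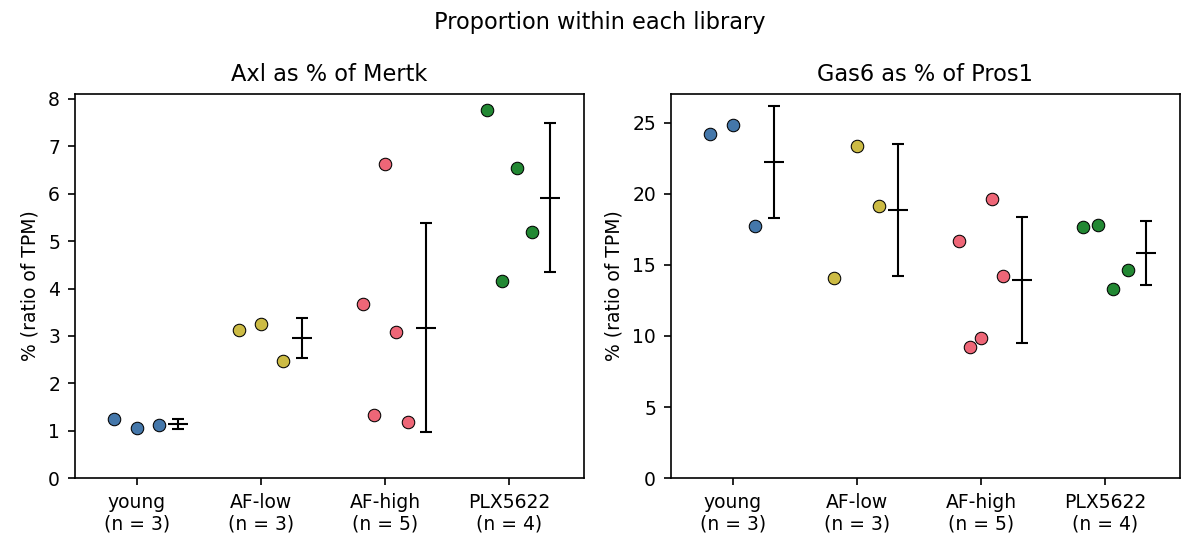
Axl as a percentage of Mertk (left) and Gas6 as a percentage of Pros1 (right) in each of 15 libraries, from TPM, with vertical axes from 0. Points are libraries and the bar beside each group is its mean ± SD. The PLX5622 libraries lie at 4.162% to 7.774% for the receptors and the young ones at 1.048% to 1.256%, whereas for the ligands the young libraries, at 17.72% to 24.87%, overlap each of the other groups.

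Gas6, the ligand shared by all TAM receptors and the one that engages Axl, was highest in young microglia and was not higher in the group with the most Axl. Its levels were 38.01, 40.55 and 29.24 TPM in young 1 to 3 and 24.35, 33.42 and 34.17 in AF-low 1 to 3. The AF-high libraries 1 to 5 had 28.17, 23.95, 16.31, 31.99 and 31.85 TPM and the PLX5622 libraries 1 to 4 had 26.36, 27.14, 19.96 and 26.08. All PLX5622 libraries were below all young libraries, and the other groups overlapped one another. AF-high 3 had the least Gas6 and, within its group, the most Axl.

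The group means of Gas6 were 35.93 ± 5.934 TPM in young, 30.64 ± 5.465 in AF-low, 26.45 ± 6.553 in AF-high and 24.89 ± 3.316 in PLX5622 libraries, and no pair of neighbours in that order differed beyond its spread. PLX5622 was lower than young by -0.51 ± 0.23 on the log2 scale (interval -0.99 to -0.028, unadjusted p = 0.03953, adjusted p = 0.9337 by limma). The lack of overlap was shared by 12.7% of all genes in this direction, and the median difference of all genes was -0.11. AF-high against young gave -0.45 ± 0.22 (interval -0.91 to 0.0073, adjusted p = 0.465). Young 1 and 2, which had the most Gas6, also carried the most choroid plexus and astrocyte transcripts. The sum of 5 measured choroid plexus and ependyma markers (of 9 listed) ran from 193.9 to 7880 TPM in young libraries. It ran from 32.29 to 354.3 TPM in AF-high and from 127.6 to 187.8 in PLX5622 libraries. That of 10 astrocyte markers (of 12) ran from 115.3 to 332.2 TPM in young, 103.3 to 153.9 in AF-high and 88.83 to 105.5 in PLX5622 libraries. The part of these transcripts in the Gas6 levels was not tested. Against young 3 alone, the young library with the lowest of both sums and the least Gas6, the difference of the PLX5622 libraries was -0.23.

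Pros1, which encodes protein S, an anticoagulant cofactor as well as a Mertk ligand, had its highest mean in AF-high microglia, where a pair of libraries stood above the rest. The AF-high libraries 1 to 5 had 168.9, 259.8, 165, 163.2 and 223.6 TPM, so that AF-high 2 and AF-high 5, which had the least Axl of their group, had the most Pros1. The young libraries 1 to 3 had 157.1, 163 and 165 TPM, the AF-low libraries 172.6, 143.1 and 178.3 and the PLX5622 libraries 1 to 4 had 149, 152.3, 150.1 and 178. The remaining AF-high libraries lay inside the range of the AF-low group, and no group stood apart from another.

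The means of Pros1 were 196.1 ± 43.6 TPM in AF-high, 164.7 ± 18.9 in AF-low, 161.7 ± 4.095 in young and 157.3 ± 13.84 in PLX5622 libraries. PLX5622 differed from AF-high by -0.29 ± 0.14 on the log2 scale (interval -0.60 to 0.012, adjusted p = 0.3422 by limma), AF-high from young by 0.25 ± 0.16 (adjusted p = 0.5898) and AF-high from AF-low by 0.23 ± 0.16 (adjusted p = 0.7188). Without AF-high 2 these became -0.19, 0.14 and 0.12. AF-high 2 and AF-high 3 also stood out in the share of mitochondrially encoded transcripts, 5.376% and 7.657%, where AF-high 1, 4 and 5 had 2.372% to 2.698%, and the part of this share in the Pros1 or Axl levels was not tested. Between PLX5622 and young the Pros1 difference was -0.043 (interval -0.39 to 0.30) and between AF-low and young 0.020 (interval -0.35 to 0.39).

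Among the ligands Gas6 came to 22.26% ± 3.945 of the Pros1 level in young, 18.87% ± 4.628 in AF-low, 13.93% ± 4.426 in AF-high and 15.87% ± 2.252 in PLX5622 libraries. The lowest proportions, 9.22% and 9.89%, were those of AF-high 2 and AF-high 3. In the first Pros1 was high and in the second Gas6 was low.

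For each member the genes of most similar pattern were sought among 8950 others of at least 5 TPM on average, by the root mean square difference over 15 libraries after each gene was centred on its own mean in log2(TPM + 1). For Axl, whose own spread around its mean was 0.8259, these were St8sia6, a sialyltransferase (0.4172), Hcar2, a receptor for niacin and ketone bodies (0.4334), and Naalad2, a peptidase (0.5114). St8sia6 averaged 10.22 TPM in young, 14.86 in AF-low, 16.91 in AF-high and 41.26 in PLX5622 libraries, and Hcar2 3.07, 7.5, 8.041 and 12.59 in the same order. These genes were picked for their likeness to Axl over the same libraries, so shared highs, lows and group differences follow from the choice. Within AF-high, St8sia6 was highest in library 3 (29.68 TPM) and lowest in library 2 (7.493 TPM), and so was Naalad2 (66.58 and 34.61 TPM). Hcar2 was highest in library 4 (10.12 TPM) and lowest in library 5 (5.108 TPM). The Hcar2 difference between PLX5622 and young was called (1.75 ± 0.22, adjusted p = 0.006093 by limma), and that of St8sia6 was 1.89 ± 0.34 (adjusted p = 0.05094).

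**Figure D4:**
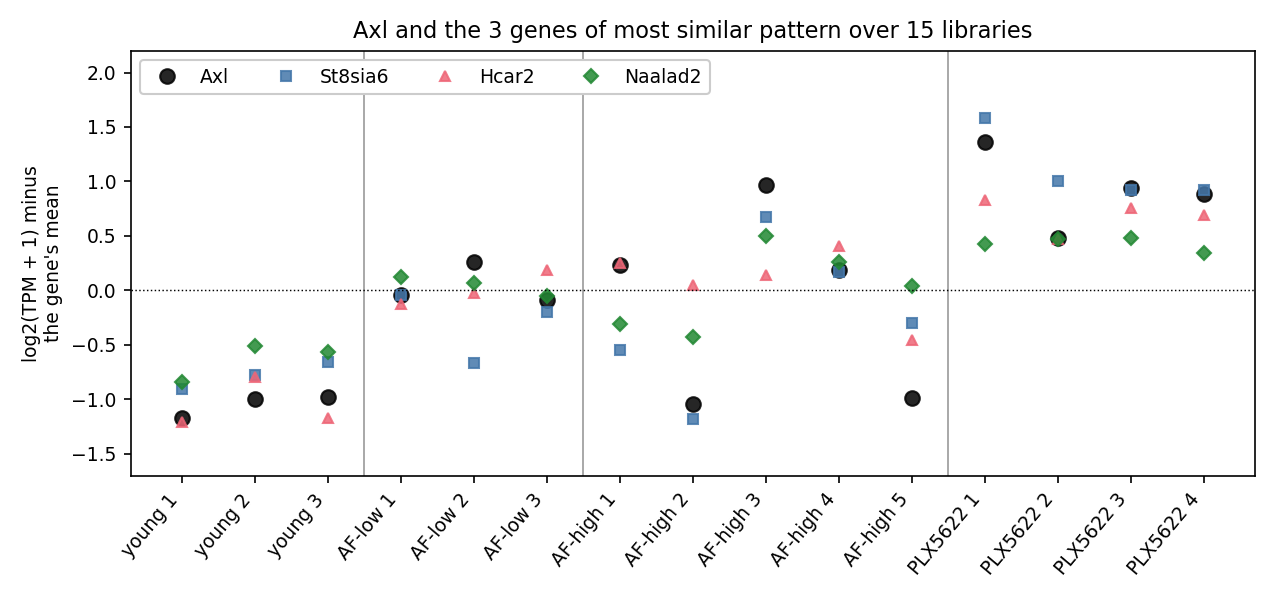
Axl and the genes nearest to it in pattern, St8sia6, Hcar2 and Naalad2, in each of 15 libraries (horizontal axis), as log2(TPM + 1) minus the mean of each gene (vertical axis). Each marker is 1 library, and vertical lines part the groups. All 4 genes lie below their means in the young and above them in the PLX5622 libraries. The other genes were chosen for this likeness to Axl.

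For Mertk the nearest genes were Smap2 (0.0854), Bptf (0.0952) and Rbm33 (0.105), beside a spread of Mertk itself of 0.1634. For Gas6, with a spread of 0.3202, they were Ecscr (0.1378), the creatine kinase gene Ckb (0.173) and Atp5g3, a subunit of ATP synthase (0.1736). For Pros1, with a spread of 0.2178, they were Ube2l6 (0.1176), the ectonucleotidase gene Entpd1 (0.1188) and Ifnar2, a chain of the type I interferon receptor (0.121). Between members the difference was 0.2424 for Mertk and Gas6, 0.2593 for Mertk and Pros1 and 0.3989 for Gas6 and Pros1. It was 0.9132 for Axl and Mertk, 0.9544 for Axl and Pros1 and 1.046 for Axl and Gas6. This measure also grows with the spread of the genes compared, so a small value need not mean a shared pattern.

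The rest of the pathway was read from 7 lists of 74 genes in all, of which 61 were tested. Between PLX5622 and AF-high 3 of 61 were called lower and 0 higher, between PLX5622 and AF-low 1 lower and 0 higher, and between PLX5622 and young 1 lower and 0 higher. Of all genes tested, 0.471%, 0.144% and 0.0304% were called lower in these comparisons. At an unadjusted p under 0.05 the pathway counts were 17, 17 and 10 of 61, beside 15.3%, 14.3% and 5.23% of all genes. In the comparisons among untreated groups 0 of 61 were called by limma. At an unadjusted p under 0.05 there were 2 for AF-high against AF-low (8.21% of all genes), 14 for AF-high against young (11%) and 16 for AF-low against young (11.8%). The median difference over the 61 genes was -0.21 for PLX5622 against AF-high, where it was -0.018 over all genes, -0.14 against AF-low (all genes -0.052) and -0.22 against young (all genes -0.11). Axl, with positive differences, was opposite in sign to these medians. The comparisons share the PLX5622 libraries.

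Downstream of the receptors, Stat2, which carries the type I interferon signal that TAM receptors are known to use and restrain, was lower in PLX5622 than in AF-high libraries. It stood at 649.3, 837.1, 624 and 827.5 TPM in PLX5622 1 to 4 and at 970, 1777, 1444, 1197 and 1189 in AF-high 1 to 5, with no overlap, as for 4.18% of all genes in this direction (-0.82 ± 0.17, adjusted p = 0.04112 by limma). Grb2, an adaptor that docks on activated receptor kinases, stood at 114.8 ± 17.16 TPM in AF-low and 61.36 ± 7.125 in PLX5622 libraries (-0.89 ± 0.16, adjusted p = 0.04336 by limma). Socs3, a feedback inhibitor of cytokine signalling, was at 241.6 ± 18.82 TPM in PLX5622 and 250.7 ± 60.89 in AF-high libraries, and Pik3r1, a regulatory subunit of phosphoinositide 3-kinase, averaged 336.3 and 330 TPM. Of 12 tested genes of this list 1 was called lower in each of these comparisons.

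In the engulfment machinery Rab7, which takes phagosomes to lysosomes, fell from 627 ± 139.8 TPM in AF-high (n = 5) to 293.4 ± 29.93 in PLX5622 libraries (n = 4), close to the 328.9 ± 37.64 of young microglia (-1.07 ± 0.18 against AF-high, adjusted p = 0.02314 by limma). All 4 PLX5622 libraries, from 265.9 to 334.3 TPM, were below all AF-high libraries, from 423.1 to 804.1, as for 4.18% of all genes. Rac1, the GTPase that drives the phagocytic cup, was at 552.4 ± 11.51 and 672.2 ± 92.5 TPM and Cdc42 averaged 351.7 and 393.8. In this list 1 of 16 genes was called lower, 13 were negative and 3 positive, with a median of -0.29.

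Among find-me and do-not-eat-me genes, S1pr1, a receptor for the lipid sphingosine 1-phosphate, was lower in PLX5622 than in both AF-high and young libraries. It was at 14.76, 16.87, 14.54 and 17.3 TPM in PLX5622 1 to 4, at 24.23 ± 2.12 in AF-high and at 31.74 ± 0.9422 in young libraries. The difference was -0.58 ± 0.12 against AF-high (adjusted p = 0.04952 by limma) and -0.96 ± 0.14 against young (adjusted p = 0.0132). The groups did not overlap in either comparison, as held in this direction for 4.18% of all genes against AF-high and 12.7% against young. P2ry12, Sirpa and Cx3cr1, the most abundant of this list, averaged 1941, 675.8 and 359.5 TPM in PLX5622 and 2150, 668.5 and 455.1 in AF-high libraries. Across 25 alternative settings these 5 pathway differences kept their sign, and the call held in 18 for Rab7, 10 for Stat2, 6 for S1pr1 against AF-high, 19 for S1pr1 against young and 8 for Grb2. Leaving out each of 15 libraries in turn ended the call of Rab7 4 times, once for each PLX5622 library (adjusted p 0.05293 to 0.1047), and that of S1pr1 against young 4 times, without young 1, young 2, PLX5622 1 or PLX5622 3 (0.07715 to 0.139). It ended those of Stat2, S1pr1 against AF-high and Grb2 11, 12 and 11 times, with the highest adjusted p, 0.1798, 0.2057 and 0.2161, without PLX5622 3.

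Of the other receptors for apoptotic cells and their bridging proteins, 0 of 10 tested were called by limma in any comparison. At an unadjusted p under 0.05 there were 4 for PLX5622 against AF-high (15.3% of all genes) and 3 against AF-low (14.3%). PLX5622 against young had 2 (5.23%), and AF-high against young had 2 (11%). AF-low against young had 1 (11.8%), and AF-high against AF-low had 1 (8.21%). Itgb5, an integrin chain that binds the bridging protein Mfge8, averaged 350.8 TPM in PLX5622 and 384.6 in AF-high libraries. Havcr2, which encodes Tim-3, averaged 256.3 and 310.6, and Stab1, a scavenger receptor also found on border-associated macrophages, 111.7 and 184.1. Mfge8 itself, named after its values were seen, stood at 11.64 ± 3.56 TPM in young and 5.397 ± 2.957 in AF-high libraries. Mfge8 is also on the astrocyte list: young 1 to 3 had 14.16, 13.19 and 7.566 TPM of it beside astrocyte sums of 309.8, 332.2 and 115.3 TPM, and the part of astrocyte RNA in its level was not tested. Of these receptors Itgb5 came nearest to Mertk in level, and all 3 were more abundant than Axl.

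Both ligands need vitamin K-dependent carboxylation. Vkorc1, which recycles vitamin K, was at 41.9 ± 3.954 TPM in young, 76.49 ± 35.5 in AF-low, 76.43 ± 25.42 in AF-high and 54.87 ± 6.949 in PLX5622 libraries. Its relative Vkorc1l1 averaged 16.21, 24.84, 27.25 and 21.07 TPM in the same order, and Furin, a protease of the secretory pathway, 24.59, 40.12, 30.9 and 25.64. Of the 4 genes of this list 0 were called by limma in each comparison. At an unadjusted p under 0.05 there were 2 for AF-high against young (11% of all genes) and 2 for AF-low against young (11.8%). There was 1 for PLX5622 against AF-low (14.3%). There were 0 for AF-high against AF-low (8.21%), PLX5622 against AF-high (15.3%) and PLX5622 against young (5.23%). For Vkorc1 the AF-high difference from young was 0.79 ± 0.28 (adjusted p = 0.3117 by limma).

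TAM receptors are shed from the cell surface by Adam10 and Adam17. Adam17 averaged 88.05 TPM in young, 112.5 in AF-low, 100.6 in AF-high and 92.48 in PLX5622 libraries, and Adam10 69.77, 58.22, 55.78 and 68.04. Rhbdf2, which brings Adam17 to the surface, ran from 3.422 to 33.82 TPM in AF-high and from 5.437 to 8.173 in PLX5622 libraries. Of the 4 genes of the shedding list 0 were called by limma in each comparison. At an unadjusted p under 0.05 there were 2 for AF-high against young (11% of all genes) and 2 for AF-low against young (11.8%). There were 2 for PLX5622 against AF-low (14.3%) and 1 for PLX5622 against AF-high (15.3%). There were 0 for AF-high against AF-low (8.21%) and PLX5622 against young (5.23%). Of the regulators of apoptotic-cell clearance the nuclear receptor Ppard averaged 77.1 TPM in PLX5622 and 111.6 in AF-high libraries, and Nr1h2, which encodes a liver X receptor, 58.7 and 69.02. All 6 tested genes of that list were negative between PLX5622 and AF-high, and 0 were called by limma in each comparison. At an unadjusted p under 0.05 there was 1 for PLX5622 against AF-high (15.3% of all genes) and 1 for PLX5622 against young (5.23%). The other comparisons had 0, beside 8.21% of all genes for AF-high against AF-low, 11% for AF-high against young, 11.8% for AF-low against young and 14.3% for PLX5622 against AF-low.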

How the data were processed

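RNA was sequenced from sorted mouse microglia. Per the labels' protocols, RNA was amplified with the Ovation RNA-seq system before low-input library preparation. The authors deposited TPM, 1 column per library and 1 row per gene symbol; FastQC 0.11.8, Salmon 1.0.0, DESeq2 and the build GRCm38 (mm10) are named in the submitters' processing notes. No source used here states the annotation or the filter behind the deposited table. Library totals ran from 956489.2 to 963145 TPM, 0 values equalled 0 and 0 pairs of libraries were identical. TPM keeps no read depth, so no counting interval was computed and the precision of low values is unknown.

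Values were taken as log2(TPM + 1), a scale on which the change of low genes is understated, for 13175 genes with at least 1 TPM in at least 3 libraries. All 15 libraries entered 1 model with limma 3.58.1 in R 4.3.3 (group means, eBayes with trend, residual degrees of freedom 11, median prior degrees of freedom 4.151), with 6 two-sided contrasts. The labels call the libraries biological replicates without tying a library to 1 animal or a pool, so p-values reflect the spread among these libraries. The fit was tested on simulated data. Members, lists and alternatives were chosen with earlier results of these data known. Genes were named by rule: the members, genes of 7 pathway lists that were called or were the 3 most abundant of their list, the 3 genes nearest in pattern to each member, and the most abundant marker of a cell type list that moved with a result. Some genes that this rule selects are not reported here. Alternatives were another pseudocount (0.1), no filter, a filter at 5 TPM, 2 rescalings, library weights, a replicate block, fits of both groups only, and fits without single libraries or sets of them. Promoter windows and positions came from RefSeq (GRCm38.p6) and GENCODE M21. Figures were drawn with matplotlib 3.10.9.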

Additional observations from a re-analysis of the deposited data

Results flagged for a closer look

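In groups of 4 or 5 libraries the gap of the highest or lowest library to its nearest neighbour was set against the range of the group. Of 78 such groups, from 39 named genes, 9 held a library farther out than the 95% limit of Dixon's test, where chance alone flags about 1 in 20. The genes share their libraries, and some were picked for likeness to a member. The groups are thus not independent, and no excess over that rate can be read from the count. Among the members these were Gas6 in PLX5622 3, low at 19.96 TPM, and Pros1 in PLX5622 4, high at 178 TPM. PLX5622 3 was also low in Havcr2 (238.6 TPM) and Vkorc1 (44.53 TPM). AF-high 2 was high in Stab1 (270.2 TPM), Vkorc1l1 (48.32 TPM), Ube2l6 (32.44 TPM) and Ifnar2 (220.1 TPM), the latter 2 being among the 3 genes nearest to Pros1 in pattern. St8sia6, the gene nearest to Axl, was high in PLX5622 1 at 56.64 TPM.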

How the results depend on the processing

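Of 600 recomputed differences of the members, 565 kept their direction and their side of the threshold, 6 passed the threshold and 29 changed sign. All 6 that passed were of Axl. For PLX5622 against young its adjusted p was 0.04236 (difference 2.16) under quantile normalization, 0.0004668 (1.92) with array weights, 0.003006 (1.96) with only both groups, 0.01555 (1.96) without AF-high 2, AF-high 3 and AF-low 1 together and 0.02747 without AF-high 3, and leaving out single libraries gave differences of 1.81 to 2.11 and adjusted p up to 0.3983. The adjusted p was 1 (1.89) with young 3 as the only young library and 0.1647 (1.95) with the replicate block. For PLX5622 against AF-high it was 0.03617 (1.21) with array weights.

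Changes of sign were all of small differences that were not called. Under quantile normalization they were Mertk at 0.044 (AF-high against AF-low), 0.088 (PLX5622 against AF-high) and 0.13 (PLX5622 against AF-low), Gas6 at 0.032 (PLX5622 against AF-high), and Pros1 at -0.11 (AF-low against young), 0.14 (PLX5622 against AF-low) and 0.028 (PLX5622 against young). Under median-ratio scaling they were Mertk at 0.013 (AF-high against AF-low) and 0.0019 (PLX5622 against AF-low) and Pros1 at 0.070 (PLX5622 against young). Without AF-high 2, AF-high 3 and AF-low 1 together Pros1 was at -0.017 for AF-low against young, and without young 1 and young 2 together, which leaves young 3 as the only library of its group, assumed to vary like the others, and takes out the highest Gas6 values, Gas6 was at 0.050 and Pros1 at -0.0092 in that comparison. Leaving out single libraries gave -0.45 to 0.053 for Axl and -0.13 to 0.024 for Mertk (AF-high against AF-low), -0.073 to 0.023 for Mertk and -0.21 to 0.042 for Gas6 (PLX5622 against AF-high) and -0.041 to 0.12 for Pros1 (AF-low against young). The cause was not tested.

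The replicate numbers are shared between groups, but the labels do not tie them to an animal. Deviations of AF-high and AF-low libraries that share a number correlated between -0.0812 and 0.05302, so the numbers were not taken as pairs. With the replicate block Axl was at 0.029 (AF-high against AF-low), Mertk at 0.018 and Gas6 at 0.018 (PLX5622 against AF-high), no member was called, and none of the 5 pathway calls held. The number of all genes called depended on the setting: for PLX5622 against AF-high it was 83, 0 with the block and 441 with array weights, and for PLX5622 against young it was 12, 3 and 420. For PLX5622 against AF-low it was 19 and ran from 0 to 398 over all settings, for AF-low against young it was 6 and ran from 0 to 182, and for AF-high against young it was 0 and ran to 129.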

Other observations

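The AF-high libraries did not vary in step across the 4 genes. AF-high 3 had the most Axl (27.8 TPM) and the least Gas6 (16.31 TPM) and Mertk (420.1 TPM) of its group, and AF-high 2 the least Axl (6.133 TPM) and the most Pros1 (259.8 TPM). Rhbdf2, the Adam17 partner, was at 33.82, 16.71, 3.422, 9.378 and 20.74 TPM in AF-high 1 to 5, lowest in the library with the most Axl.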
